A study of Mus musculus with 36 samples.

Results

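Transcripts of the 10 genes that carry out or steer *de novo* lipogenesis in the liver were followed through feeding, fasting and refeeding in *Pik3r1* WT/Y657* mice and wild-type controls. The genes were *Fasn*, *Acaca*, *Acacb*, *Acly*, *Acss2*, *Scd1*, *Elovl6*, *Me1*, *Thrsp* and *Mid1ip1*, taken by symbol from the 38283 genes of the count table for their known roles, and all 10 passed the filter on low counts. RNA was sequenced from livers of 36 male C57Bl/6J mice aged 16 weeks and kept on chow, 6 per group. Wild-type mice carried no mutant allele, and mutant mice carried 1 *Pik3r1* allele with the Y657X truncation in all tissues (WT/Y657*) beside 1 wild-type allele. In each genotype 1 group was fed ad libitum, 1 was taken after a 16 h fast, and 1 was given chow again for 6 h after such a fast, with no other agent or transgene. The labels give sex and zygosity in no field, and both were taken from the study's description.

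*De novo* lipogenesis turns citrate exported from mitochondria into palmitate. Cytosolic acetyl-CoA from ATP citrate lyase (*Acly*) or acetyl-CoA synthetase (*Acss2*) is carboxylated to malonyl-CoA by the acetyl-CoA carboxylases (*Acaca*, *Acacb*), and fatty acid synthase (*Fasn*) builds the chain with NADPH supplied in part by malic enzyme (*Me1*), after which *Elovl6* elongates and *Scd1* desaturates the product. In liver the pathway is known to be induced by insulin through SREBP1c (*Srebf1*) and by sugars through ChREBP (*Mlxipl*). *Pik3r1* encodes the regulatory subunits of the phosphoinositide 3-kinase that relays the insulin signal.

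The totals ranged from 8839488 to 19542775 counts per liver, and each count below is given as CPM, relative to the size of its library after TMM scaling. In no pair among the 90 pairs of mice from 1 group did counts agree within sampling noise. *Pik3r1* itself was at 74.5 to 182 CPM over all mice and did not differ by genotype in any state (adjusted p = 0.886 fed, 0.807 fasted and 0.423 refed, edgeR), and since reads of both alleles are summed it does not check the genotype labels. The 6 hepatocyte markers were present in every liver, with *Alb* at 30030 CPM or more. Of 6 adipocyte markers, *Lep* was at 0 in 35 livers, *Plin1* in 30, *Adipoq* in 24 and *Retn* in 21. *Cfd* was at 0 in only 2 livers and reached 9.27 CPM, and *Adrb3* was present in every liver at 0.461 to 2.9 CPM. The summed level of the list was 0.726 to 12.9 CPM. The 10 markers of non-parenchymal liver cells summed to 345 to 678 CPM. These are whole livers, in which fewer cells of a type and less RNA per cell cannot be told apart. By the mouse numbers in the labels, fed mice formed a middle series, whereas fasted and refed mice came from a series with lower and another with higher numbers, so feeding state and number series cannot be told apart where fed mice are compared with others. By the study's description livers were taken before an overnight fast, at its end, or after the refeeding that followed. It gives no clock times, so feeding state and time of day cannot be told apart.

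The start regions of 9 of the 10 genes, all but *Scd1*, were matched by symbol in the RefSeq promoter table of the mouse build GRCm38.p6, 10 windows in all. Over the 250 bases upstream of each start, 4 short motifs were searched on both strands: CCAAT, the letters bound by NF-Y, GGGCGG, bound by Sp1, CACGTG, an E-box, and TCACCCCAC, a sterol regulatory element. The sequences of *Fasn* and *Acly*, whose transcripts rose on refeeding, and of *Acacb*, whose transcript did not rise, are shown 5′ to 3′ on the gene's strand with CCAAT and GGGCGG matches in capitals, and with exonic bases of GENCODE M21 left out.
Fasn, minus strand, chr11:120824548-120824797: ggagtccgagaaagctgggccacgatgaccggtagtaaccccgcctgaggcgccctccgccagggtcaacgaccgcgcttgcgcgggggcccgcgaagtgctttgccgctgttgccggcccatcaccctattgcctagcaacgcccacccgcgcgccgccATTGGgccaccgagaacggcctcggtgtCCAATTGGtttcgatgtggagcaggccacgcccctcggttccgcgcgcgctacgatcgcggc
Acly, minus strand, chr11:100528001-100528250: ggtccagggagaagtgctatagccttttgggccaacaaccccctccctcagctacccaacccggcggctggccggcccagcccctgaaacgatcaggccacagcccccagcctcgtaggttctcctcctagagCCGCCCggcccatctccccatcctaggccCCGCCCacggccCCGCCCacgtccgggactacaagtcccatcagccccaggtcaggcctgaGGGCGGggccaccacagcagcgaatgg
Acacb, plus strand, chr5:114165268-114165508: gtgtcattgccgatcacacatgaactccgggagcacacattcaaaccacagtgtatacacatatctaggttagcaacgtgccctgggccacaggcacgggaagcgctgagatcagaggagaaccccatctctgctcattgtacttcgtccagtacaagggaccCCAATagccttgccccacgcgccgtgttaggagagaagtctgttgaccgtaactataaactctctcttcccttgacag
CCAAT was found in windows of 5 of the 9 genes (*Acacb*, *Acss2*, *Fasn*, *Me1* and *Thrsp*) and in 33.8% of all 32851 windows of the table. The CCAAT matches of *Thrsp* and *Acss2* fell within exonic bases of their windows. The share counts windows, whereas *Me1* had 2 windows. The *Fasn* window held 3 matches, and 2 of them overlapped as CCAATTGG. GGGCGG was found for 4 genes (*Acly*, *Acss2*, *Me1* and *Mid1ip1*) and in 32.7% of all windows, and the *Acly* window held 4 matches. The *Mid1ip1* window began within an exon of another gene, *Gm10489*, and 128 of its 250 bases were exonic. The GGGCGG match of *Acss2* nearest the start lay in exonic bases, and that of *Me1* reached into them. The letters CACGTG and TCACCCCAC, present in 6.02% and 0.496% of all windows, were in no window of these genes. The windows of *Acaca*, *Acacb*, *Acss2*, *Me1*, *Mid1ip1* and *Thrsp* lie at RefSeq starts inside the gene spans of the count table. They are downstream of the first start that the table gives, so they are not the only start regions of these genes. The CCAAT match of *Me1* was in the window further inside the gene. The windows cover 1 or 2 start sites per gene, and a match of letters describes the sequence only.

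Per kilobase of transcript, *Scd1*, the stearoyl-CoA desaturase that makes oleate, had the highest level of the 10 in all 6 groups. In fed wild-type mice it was at 1489 ± 649 CPM per kb (SD, n = 6), followed by *Thrsp* at 574 ± 378, *Fasn* at 186 ± 91.7 and *Acly* at 133 ± 72.7. The order went on with *Acss2* at 83.6 ± 42.3, *Me1* at 69.1 ± 38.9, *Elovl6* at 37.5 ± 21.2, *Mid1ip1* at 36 ± 3.54, *Acaca* at 32.8 ± 8.31 and *Acacb* at 21 ± 11.7. The ranges of every neighbouring pair in this order overlapped across fed wild-type mice. Both genes of a pair come from the same mice, and their order within each mouse was not tested. In fasted wild-type mice *Scd1* (1203 ± 703) stood above *Me1* (40.9 ± 2.43) in every mouse, and *Mid1ip1* (7.0 ± 1.66) was last. In the refed groups *Acacb* was last and did not overlap with *Acaca*, the next gene up, at 4.90 ± 0.823 against 13.4 ± 2.53 CPM per kb in wild-type mice. Of the summed level per kb of all 10 genes, *Scd1* made up 56.0% when wild-type mice were fed, 88.4% when they were fasted and 39.1% when they were refed, and 62.4%, 90.3% and 47.2% in WT/Y657* mice.

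**Figure D1:**
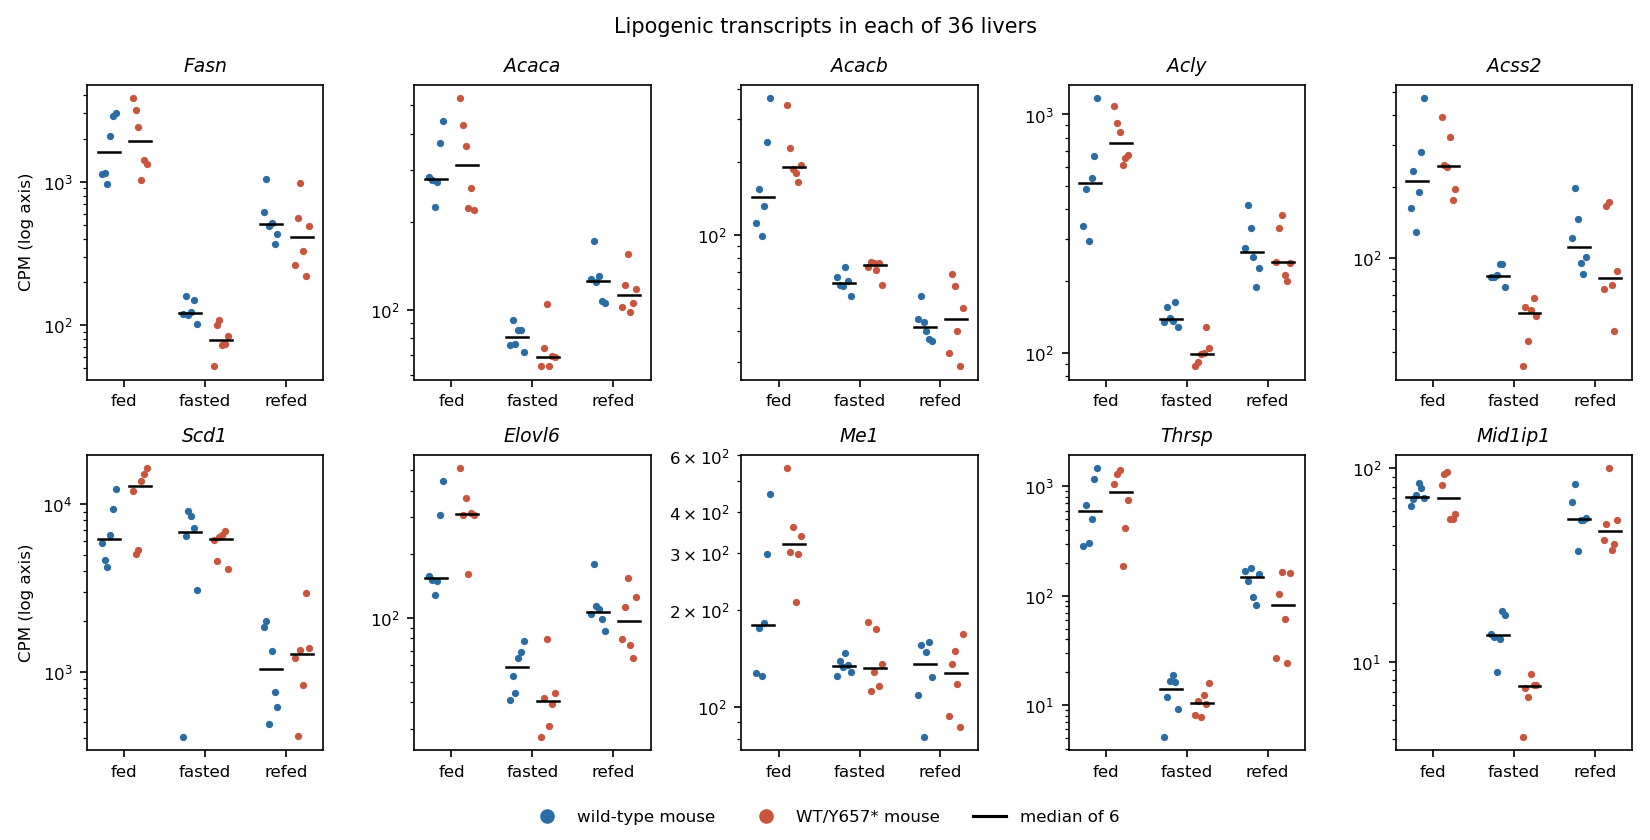
Level of each lipogenic transcript in CPM (log axis) in every mouse, wild-type in blue and WT/Y657* in red, with the median of each group of 6 as a line. *Thrsp* and *Fasn* lie far lower in fasted than in fed mice of both genotypes, while *Scd1* overlaps between fed and fasted mice and is lowest by its median in refed mice.

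The fasting comparison asked how far lipogenic transcripts fell without food in each genotype. Fasting lowered 9 of the 10 transcripts in wild-type mice, all but *Scd1*, and the same 9 in WT/Y657* mice, where 17.5% and 17.7% of the 13945 genes tested were called lower. *Thrsp*, which encodes the thyroid hormone-responsive protein Spot 14, a regulator of lipogenesis, fell furthest. Its lowest, median and highest levels were 283, 589 and 1456 CPM in fed wild-type mice and 5.12, 14 and 18.9 CPM in fasted ones. The groups were far apart, and the log2 fold change was -5.83 (standard error 0.58, adjusted p = 3.07e-09, the quasi-likelihood test of edgeR adjusted by Benjamini and Hochberg's method, as for every adjusted p given here without another tool). In WT/Y657* mice *Thrsp* fell from 186, 892 and 1399 CPM to 7.79, 10.5 and 16.0 CPM (log2 fold change -6.28, standard error 0.59, adjusted p = 1.17e-09).

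*Fasn*, which carries out chain synthesis, was at 961, 1616 and 3006 CPM (lowest, median and highest) in fed and at 101, 121 and 158 CPM in fasted wild-type mice, 14.6-fold lower (log2 fold change -3.87, standard error 0.39). Fed WT/Y657* mice had 1034, 1919 and 3843 CPM and fasted ones 51.4, 78.8 and 108 CPM, 27-fold lower (log2 fold change -4.75, standard error 0.41). No fasted mouse reached the level of a fed one in either genotype. *Mid1ip1*, a partner of Spot 14 that polymerises acetyl-CoA carboxylase, fell 5.10-fold in wild-type mice against 10.5-fold in WT/Y657* mice. The carbon-supplying enzymes fell less, *Acly* by 4.09-fold and 7.86-fold and *Acss2* by 2.86-fold and 4.82-fold in the respective genotypes. Among the carboxylases, *Acaca*, the cytosolic form, fell 3.84-fold and 4.55-fold, and *Acacb*, the form bound to mitochondria, 2.88-fold and 2.96-fold. *Elovl6* fell 3.83-fold and 7.48-fold.

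*Me1* fell least of the 9, by 1.69-fold in wild-type mice against 2.41-fold in WT/Y657* mice, and in wild-type mice its fed (125 to 455 CPM) and fasted (125 to 147 CPM) levels overlapped. Its call in wild-type mice was lost without fed replicate 1 (adjusted p = 0.0544) or fed replicate 5 (adjusted p = 0.142), and with only the groups compared (adjusted p = 0.0839). *Scd1* was not called in either genotype. It was at 4249, 6241 and 12398 CPM in fed and 408, 6851 and 9131 CPM in fasted wild-type mice (log2 fold change -0.31, standard error 0.49, adjusted p = 0.677). The lowest value came from fasted replicate 1, and the other 5 fasted wild-type mice were between 3077 and 9131 CPM. In WT/Y657* mice *Scd1* was at 5078, 12921 and 16349 CPM when fed and at 4134, 6231 and 6952 CPM when fasted (log2 fold change -0.97, standard error 0.49, adjusted p = 0.133), and with only these groups fitted it was called lower (adjusted p = 0.0241). The median log2 fold change of the 10 genes was -1.94 in wild-type mice against -2.59 in WT/Y657* mice, beside 0.01 and -0.0079 over all genes tested.

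Refeeding for 6 h was compared with the fasted state, from the same number series, to follow the pathway after food was returned. Time of day cannot be told apart from feeding state in this comparison either. In the higher-numbered series all refed mice had lower numbers than all fasted mice. Feeding state and number run cannot be told apart there. In wild-type mice 6 of the 10 transcripts rose (16.5% of all genes tested were called higher) and 1, *Scd1*, fell (13.7% called lower). In WT/Y657* mice 7 rose, these 6 and *Acss2* (17.1% called higher), and 2 fell, *Scd1* and *Acacb* (14.2% called lower). *Thrsp* rose most on the fold scale, 10.6-fold in wild-type mice against 8.25-fold in WT/Y657* mice, and *Fasn* rose 4.51-fold and 5.78-fold. Refed *Fasn* levels were 371, 504.4 and 1045 CPM in wild-type and 220, 409 and 975 CPM in WT/Y657* mice, all above the fasted mice of their genotype. *Mid1ip1* rose 4.08-fold in wild-type mice (log2 fold change 2.03, standard error 0.22, adjusted p = 2.57e-08) and 7.81-fold in WT/Y657* mice (log2 fold change 2.96, standard error 0.24, adjusted p = 4.15e-11).

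The enzymes of carbon supply and elongation rose less. *Acly* rose 1.97-fold and 2.63-fold in wild-type and WT/Y657* mice, *Elovl6* 1.99-fold and 2.32-fold, and *Acaca* 1.57-fold in both. *Elovl6* in wild-type mice was no longer called without refed replicate 2 (adjusted p = 0.0506). *Acss2* reached 86.0, 111 and 197 CPM in refed wild-type mice, from 75.9, 83.9 and 94.0 CPM in fasted ones, which was not called (log2 fold change 0.53, standard error 0.29, adjusted p = 0.168), except with only these groups fitted (adjusted p = 0.047). WT/Y657* mice went from 34.9, 58.7 and 68.1 to 49.4, 82.7 and 172 CPM (log2 fold change 0.94, standard error 0.29, adjusted p = 0.014), a call that was lost without refed replicate 5 (adjusted p = 0.0524) or refed replicate 6 (adjusted p = 0.0595). The rise in mean log2 CPM was 1.47 in the lower-numbered and 0.17 in the higher-numbered series of WT/Y657* mice, and 0.86 and 0.10 in wild-type mice. *Acss2* shares 395 exonic bases on the opposite strand with *Gss*, which was at 47.2 to 96.6 CPM and was itself higher on refeeding (log2 fold change 0.34 and 0.49 in the 2 genotypes). Whether the counting used strand is not stated, and the part of *Gss* reads in the *Acss2* count was not tested. *Me1* was not called on refeeding, with log2 fold changes of -0.056 (adjusted p = 0.894) and -0.18 (adjusted p = 0.629).

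*Scd1* moved against the genes of the pathway that rose on refeeding. Refed wild-type mice had 485, 1038 and 1998 CPM (lowest, median and highest), below 5 of the 6 fasted wild-type mice, and the log2 fold change was -2.31 (standard error 0.51, adjusted p = 0.000774). Refed WT/Y657* mice had 412, 1275 and 2952 CPM, all below the fasted WT/Y657* mice (log2 fold change -2.09, standard error 0.50, adjusted p = 0.00179). *Acacb* also did not rise. In wild-type mice it was at 55.7, 63.3 and 73.6 CPM fasted and 36.4, 41.8 and 56.1 CPM refed (log2 fold change -0.58, standard error 0.24, adjusted p = 0.0729), and DESeq2 (adjusted p = 0.049), limma-voom (adjusted p = 0.0377), the number series as a covariate (adjusted p = 0.00386) and the fit to only these groups (adjusted p = 0.000102) called it lower. WT/Y657* mice had 62.4, 75 and 77.2 CPM fasted and 28.6, 45 and 69.1 CPM refed (log2 fold change -0.64, standard error 0.24, adjusted p = 0.0448), and 5 of 6 refed mice of either genotype lay below every fasted mouse of it. The call in WT/Y657* mice was close to the threshold, and it was lost when any of 9 mice was left out, with an adjusted p of 0.0576 to 0.111. The 2 carboxylases therefore went apart on refeeding, *Acaca* higher and *Acacb* with values below 0, although both had fallen on fasting.

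**Figure D2:**
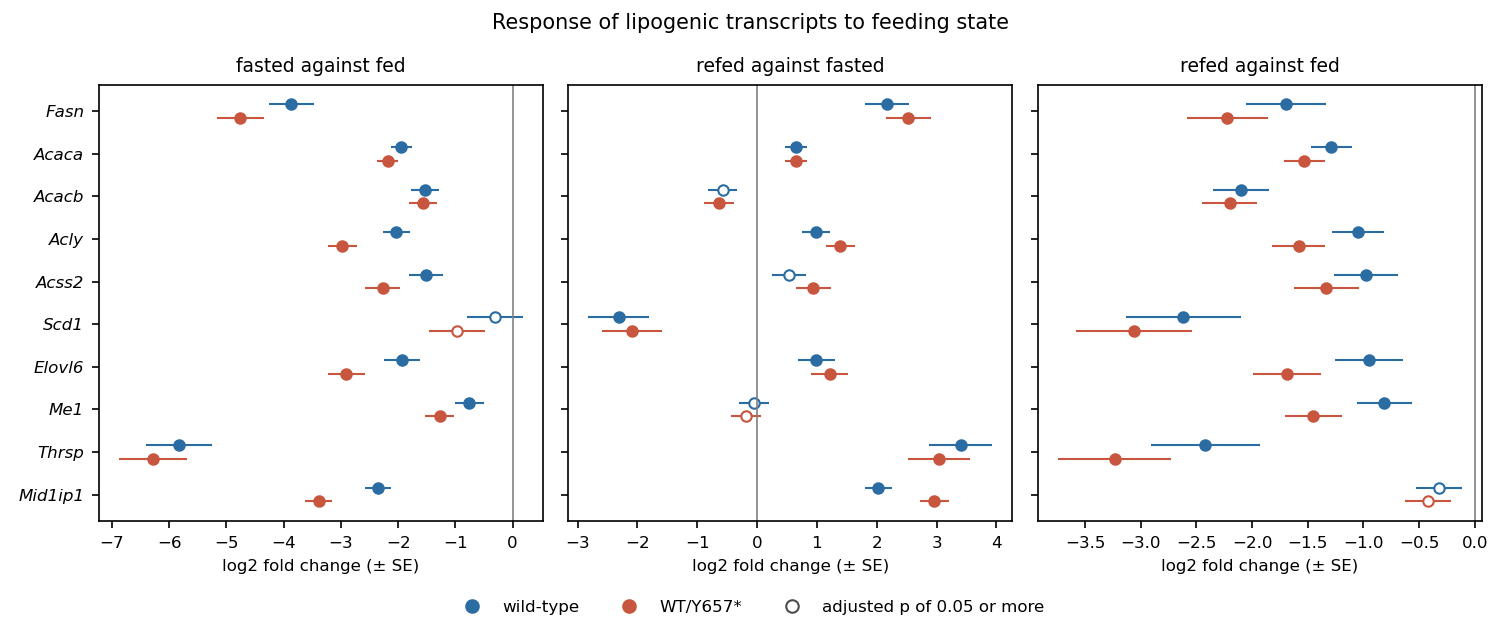
Log2 fold change with its standard error for each lipogenic transcript (rows) between feeding states in wild-type (blue) and WT/Y657* mice (red), filled where the adjusted p was under 0.05. Fasting points lie left of 0 throughout, refeeding points lie right of 0 for 7 genes and left of it for *Scd1*, *Acacb* and *Me1*, and refed levels lie below fed levels in all rows.

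The third comparison of states set mice refed for 6 h against fed mice, which came from another number series. In each genotype 9 of the 10 genes, all but *Mid1ip1*, were lower in refed than in fed mice, beside 14.3% of all genes tested in wild-type mice against 13.1% in WT/Y657* mice. Among the 9, *Scd1*, *Acacb* and *Me1* had not risen from the fasted level on refeeding. *Scd1* was 6.14-fold lower in wild-type and 8.35-fold lower in WT/Y657* mice, *Thrsp* 5.35-fold and 9.43-fold, *Acacb* 4.29-fold and 4.6-fold, and *Fasn* 3.24-fold and 4.67-fold. *Mid1ip1* was at 37.2, 54.5 and 82.5 CPM in refed and 63.2, 70.9 and 83.1 CPM in fed wild-type mice (log2 fold change -0.32, standard error 0.21, adjusted p = 0.258). For WT/Y657* mice its log2 fold change was -0.42 (standard error 0.21, adjusted p = 0.129), and without refed replicate 6 it was -0.69 (adjusted p = 0.00544). In wild-type mice the calls of *Acss2*, *Elovl6* and *Me1* were lost without fed replicate 5 (adjusted p = 0.0631, 0.106 and 0.104), leaving 6 genes, and those of *Elovl6* and *Me1* with only the groups compared (adjusted p = 0.0574 and 0.0947).

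The comparison of genotypes in the fasted state asked whether the truncated *Pik3r1* allele changed lipogenic transcripts. *Mid1ip1* was the 1 gene of the 10 that was called, lower in WT/Y657* mice, where 6.63% of all genes tested were called lower and 6.43% higher. Fasted wild-type mice had 8.84, 13.7 and 18.2 CPM (lowest, median and highest) and fasted WT/Y657* mice 4.08, 7.44 and 8.63 CPM. Every WT/Y657* mouse lay below every wild-type mouse, and the level was 2.06-fold lower (log2 fold change -1.04, standard error 0.24, adjusted p = 0.00415). The difference in mean log2 CPM was -1.01 both in the lower-numbered and in the higher-numbered series of mice, with 3 mice of each genotype in each. In the higher-numbered series every fasted wild-type mouse had a lower number than every fasted WT/Y657* mouse. Genotype and number run therefore cannot be told apart there. *Mid1ip1* shares 543 exonic bases with the antisense gene *Gm14493*, which had medians of 3.81 CPM in fasted wild-type and 1.68 CPM in fasted WT/Y657* mice and was called lower too (log2 fold change -1.32, standard error 0.27, adjusted p = 0.0012). Since counting by strand is not stated, reads of the pair cannot be told apart.

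For 3 of the other 9 genes, fasted WT/Y657* mice had lower levels that did not pass the test over all genes. *Acss2* was at 75.9, 83.9 and 94.0 CPM in fasted wild-type and 34.9, 58.7 and 68.1 CPM in fasted WT/Y657* mice, again without overlap (log2 fold change -0.65, standard error 0.29, adjusted p = 0.141). *Fasn* was at 101, 121 and 158 against 51.4, 78.8 and 108 CPM (log2 fold change -0.65, standard error 0.35, adjusted p = 0.237), with 5 of 6 WT/Y657* mice below all wild-type mice. *Acly* was at 128, 138 and 164 against 87.6, 99.1 and 128 CPM (log2 fold change -0.49, standard error 0.23, adjusted p = 0.171), also with 5 of 6 below. When only the 12 fasted mice were fitted, *Fasn* (adjusted p = 0.0256), *Acly* (adjusted p = 0.00385) and *Acss2* (adjusted p = 0.00655) were called beside *Mid1ip1*. That fit called 1534 of 12943 genes in either direction. In both number series these 3 genes were lower in WT/Y657* mice, with differences of mean log2 CPM between -0.36 and -0.86. In the higher-numbered series the genotypes again differ in number run.

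The remaining 6 genes had log2 fold changes between -0.41 (*Elovl6*) and 0.19 (*Acacb*) in fasted mice, none called. *Scd1* did not separate the genotypes, with 408, 6851 and 9131 against 4134, 6231 and 6952 CPM (log2 fold change -0.0061, standard error 0.48, adjusted p = 0.996). The sign of this value depended on the fit, and fasted wild-type replicate 1 was far below the rest. Over all 10 genes the median log2 fold change was -0.33, beside 0.0021 over all genes tested.

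**Figure D3:**
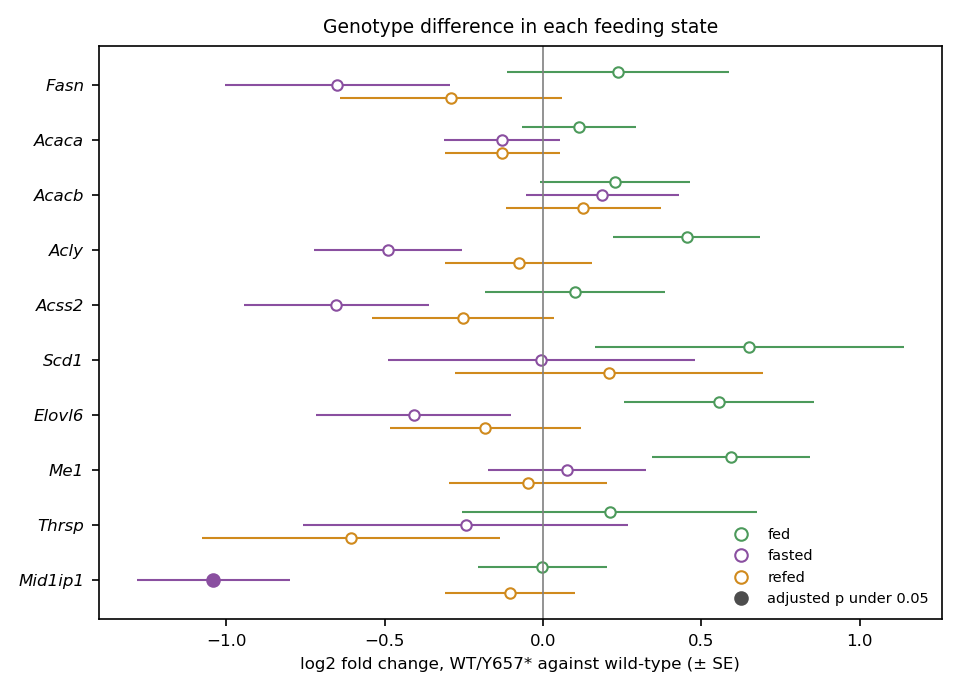
Log2 fold change with its standard error of each lipogenic transcript in WT/Y657* against wild-type mice that were fed (green), fasted (purple) or refed (orange), filled where the adjusted p was under 0.05. *Mid1ip1* in fasted mice, at -1.04, is the 1 filled point, and 8 of the 10 fasted points lie left of 0.

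In fed mice none of the 10 genes was called between genotypes, where 2.37% of all genes tested were called in either direction. At an unadjusted p under 0.05 there was 1 gene, *Me1* (log2 fold change 0.59, standard error 0.25, adjusted p = 0.2), beside 17.4% of all genes tested. DESeq2 and limma-voom called none of the 10. The log2 fold changes ran from -0.0024 (*Mid1ip1*) to 0.65 (*Scd1*), with a median of 0.23, beside 0.0079 over all genes tested, and 9 of 10 were above 0. Fed mice spread widely within each genotype, with coefficients of variation of 49.3% and 51.5% for *Fasn* and 65.8% and 57.3% for *Thrsp*, against 9.83% and 26.7% for *Mid1ip1*. Without fed wild-type replicate 5, the wild-type mouse with the highest *Acly* and *Me1* levels, both genes were called higher in WT/Y657* mice (log2 fold change 0.78, adjusted p = 0.0265, and 0.92, adjusted p = 0.0211). That fit called 428 of 14080 genes in either direction.

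The spread of fed mice went with mouse number. The numbers of fed mice fell into a low run of 4 wild-type mice, a middle run of 2 wild-type and 3 WT/Y657* mice, and a high run of 3 WT/Y657* mice. Mean log2 CPM was higher in the middle run than in the low run of wild-type mice for all 10 genes, with a median difference of 1.18, and higher in the middle run than in the high run of WT/Y657* mice for 9 genes, with a median of 0.59. *Thrsp* was at 1039 to 1456 CPM in the 5 mice of the middle run, at 283 to 675 CPM in the low run, and at 186 to 746 CPM in the high run. *Fasn* was at 2428 to 3843 CPM, at 961 to 2083 CPM and at 1034 to 1411 CPM in the same runs. *Scd1* was the exception, with 13782 to 16349 CPM in the high run and 5078 to 12060 CPM in the WT/Y657* mice of the middle run. Within the middle run the genotype difference was above 0 for 6 genes and below 0 for 4, with a median of 0.069 (3 WT/Y657* and 2 wild-type mice). With these runs of numbers as covariates, a fit chosen after seeing the data, *Me1* had a log2 fold change of 0.10 (adjusted p = 0.999) and *Acly* of 0.043 (adjusted p = 0.999), 6 of the 10 values were above 0, and *Scd1* turned to -0.54 (adjusted p = 0.999). What the numbers stand for is not given in the labels, and its part in the result was not tested.

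**Figure D4:**
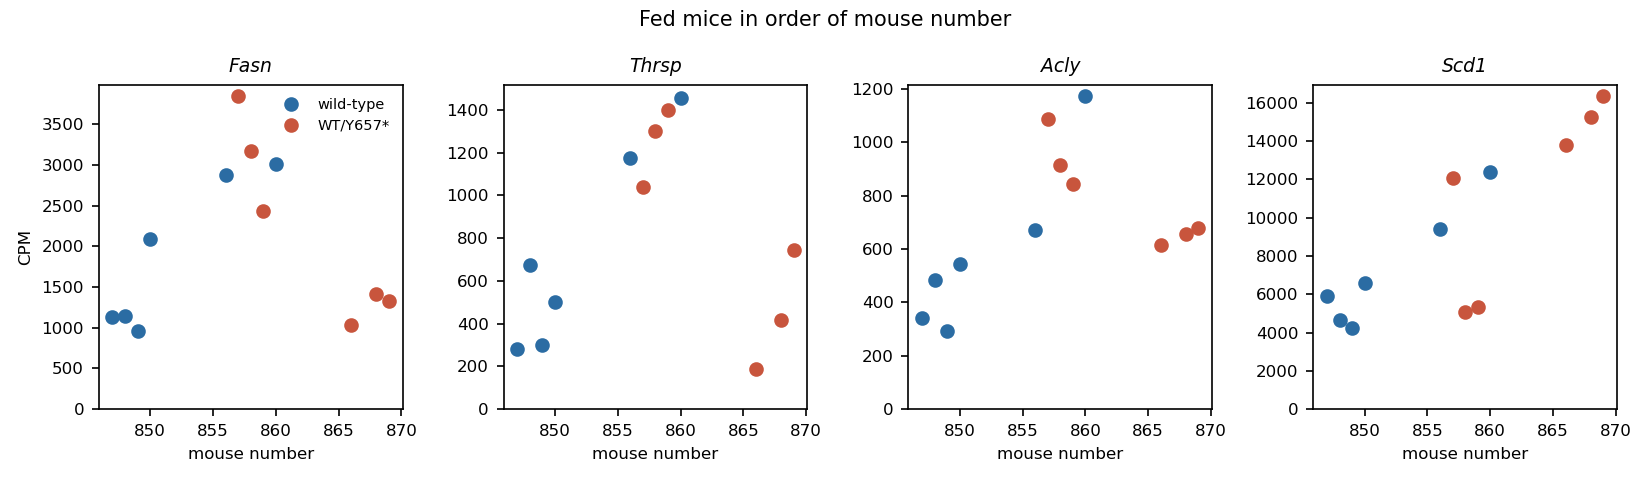
Level in CPM of *Fasn*, *Thrsp*, *Acly* and *Scd1* in each of the 12 fed mice against mouse number, wild-type in blue and WT/Y657* in red. *Fasn* and *Thrsp* are highest in the 5 mice of the middle run, which hold both genotypes, whereas *Scd1* is highest in the 3 WT/Y657* mice of the high run.

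In refed mice no gene of the 10 was called between genotypes, where 0.0287% of all genes tested were called. None of the 10 had an unadjusted p under 0.05 either, beside 9.53% of all genes tested, and DESeq2 and limma-voom called none of them. *Thrsp* had the widest gap, with 81.8, 147 and 181 CPM in wild-type and 24.1, 82.4 and 163 CPM in WT/Y657* mice (log2 fold change -0.61, standard error 0.47, adjusted p = 0.707). *Fasn* (log2 fold change -0.29, adjusted p = 0.82) and *Mid1ip1* (log2 fold change -0.10, adjusted p = 0.898) overlapped between refed genotypes. The difference of *Mid1ip1* seen in fasted mice was thus not detected 6 h after food was returned.

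The responses themselves were then compared between genotypes. For fasting no gene of the 10 was called, where the response of 4.35% of all genes tested differed. All 10 interaction values were below 0, that is toward a deeper fall in WT/Y657* mice, with a median of -0.71, beside -0.012 over all genes tested, and 3 had an unadjusted p under 0.05, as had 19.1% of all genes tested. *Mid1ip1* had an interaction of -1.04 on the log2 scale (standard error 0.32, adjusted p = 0.0541), *Acly* of -0.94 (standard error 0.33, adjusted p = 0.0963) and *Elovl6* of -0.96 (standard error 0.43, adjusted p = 0.208). *Mid1ip1* was called by DESeq2 (adjusted p = 0.0149) and by edgeR's likelihood ratio test (adjusted p = 0.0266), and *Acly* by limma-voom (adjusted p = 0.0335). With the runs of fed mouse numbers as covariates *Acly* was at -0.53 (adjusted p = 0.512) and *Elovl6* at -0.48 (adjusted p = 0.707), while *Mid1ip1* was at -1.32 (adjusted p = 0.0871), and *Scd1* (0.54) and *Acacb* (0.45) were above 0. For refeeding no gene was called beside 2.06% of all genes tested. At an unadjusted p under 0.05 there was 1 gene, beside 15.5% of all genes tested. It was *Mid1ip1*, at 0.94 (standard error 0.32, adjusted p = 0.122, and 0.0455 by DESeq2). For refed against fed mice no gene was called beside 0.179% of all genes tested. None of the 10 had an unadjusted p under 0.05, beside 10.8% of all genes tested, and no other tool called one. The fasting and refeeding values share the fasted mice.

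The transcription factors and sensors that are known to drive the pathway were read beside it, as a list of 18 tested genes. *Srebf1* was called in every fasting and refeeding comparison. Wild-type mice had 451, 526 and 608 CPM when fed, 64.3, 78.0 and 139 CPM when fasted and 137, 209 and 247 CPM when refed. WT/Y657* mice had 379, 622 and 729 CPM, then 22.8, 45.9 and 54.0 CPM, then 152, 188 and 273 CPM. All fasted WT/Y657* mice lay below all fasted wild-type mice (log2 fold change -1.07, standard error 0.19, adjusted p = 0.000374). The response of *Srebf1* differed by genotype on fasting (log2 interaction -1.24, standard error 0.27, adjusted p = 0.00775) and on refeeding (1.04, adjusted p = 0.0356). The latter was lost without any of 9 mice (adjusted p up to 0.0742) and with the number series as a covariate (adjusted p = 0.0709), and the former with the runs of fed mouse numbers as covariates (adjusted p = 0.0962). *Mlxipl*, which encodes ChREBP, was not called between fasted genotypes (log2 fold change 0.15, standard error 0.18, adjusted p = 0.661). It fell on fasting in wild-type mice by 0.52 on the log2 scale (adjusted p = 0.0272) and was not called on refeeding (log2 fold change 0.36, adjusted p = 0.136). *Insig2*, which holds SREBP in the endoplasmic reticulum, rose on fasting (log2 fold change 1.25) and fell on refeeding (log2 fold change -2.06) in wild-type mice, opposite to *Insig1* (log2 fold change -2.04 and 2.18). Of the 18 genes, 2 rose and 7 fell on fasting in wild-type mice (beside 14.5% higher and 17.5% lower of all genes tested) and 6 rose and 5 fell on refeeding (beside 16.5% and 13.7%). Between fasted genotypes 2 of the 18 were lower and none was higher, beside 6.63% and 6.43% of all genes tested. The 2 were *Srebf1* and *Sp1* (log2 fold change -0.26, adjusted p = 0.0314). Between fed genotypes 2 were lower, beside 2.37% of all genes tested called in either direction. These were *Mlx* (log2 fold change -0.39, adjusted p = 0.00178) and *Sp1* (log2 fold change -0.29, adjusted p = 0.0432). With the runs of fed mouse numbers as covariates no gene of all those tested was called. The *Mlxipl* call on fasting was lost without fed replicate 1 (adjusted p = 0.0778), fed replicate 5 (adjusted p = 0.0613) or fasted replicate 6 (adjusted p = 0.0527), and the *Sp1* call between fasted genotypes without any of 6 mice, at an adjusted p of up to 0.0776.

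Genes that supply carbon and NADPH to the pathway were called lower on fasting for 9 of 15 tested in wild-type mice (17.5% of all genes) and 13 of 15 in WT/Y657* mice (17.7%), with 1 and 0 higher. On refeeding 4 rose in wild-type mice (16.5% of all genes), 9 rose in WT/Y657* mice (17.1%), and none fell. The difference between the genotypes' responses was called for 1 of the 15 on fasting, *Tkt*, and for none on refeeding. Of all genes tested, 4.35% and 2.06% were called. Between fasted genotypes 3 of the 15 were lower in WT/Y657* mice and none was higher, beside 6.63% and 6.43% of all genes tested. These were pyruvate carboxylase (*Pcx*, log2 fold change -0.52, adjusted p = 0.00492), transketolase of the pentose phosphate pathway (*Tkt*, -0.41, adjusted p = 0.0135) and ketohexokinase (*Khk*, -0.54, adjusted p = 0.041), whose call was lost without any of 8 mice, at an adjusted p of up to 0.108. *Pcx* was the 1 gene of this list that rose on fasting in wild-type mice (log2 fold change 0.56, adjusted p = 0.000626), and in WT/Y657* mice its log2 fold change was 0.0023 (adjusted p = 0.991). The difference of these responses was -0.56 (standard error 0.18, adjusted p = 0.0616).

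Among 17 genes of fatty acid modification and esterification, 5 rose and 5 fell on fasting (beside 14.5% and 17.5% of all genes) and 3 rose and 7 fell on refeeding (beside 16.5% and 13.7%) in wild-type mice. *Elovl3*, an elongase of very long chains, went the way of *Scd1*. Wild-type mice had 109 to 262 CPM when fed, 183 to 301 CPM when fasted and 13.9 to 50.9 CPM when refed, with a log2 fold change of -2.85 on refeeding (standard error 0.31, adjusted p = 3.42e-08). The acyl-CoA synthetase *Acsl1* fell on refeeding (log2 fold change -1.12) and *Acsl3* rose (log2 fold change 0.75). *Acsl3* was the 1 gene of the list called between fasted genotypes, beside 6.63% of all genes called lower and 6.43% higher. It was lower in WT/Y657* mice (log2 fold change -0.60, adjusted p = 0.0182). Between fed genotypes 3 genes of the list were higher in WT/Y657* mice, beside 2.37% of all genes called, and they are named here after their values were seen. These were the elongases *Elovl5* (log2 fold change 1.17, adjusted p = 0.00799) and *Elovl2* (0.58, adjusted p = 0.0213) and the lipid droplet protein gene *Pnpla3* (2.25, adjusted p = 0.027). With the runs of fed mouse numbers as covariates they were at 0.036, 0.096 and -0.34 (adjusted p = 0.999 each). *Dgat2*, which adds the last chain to triglyceride, rose on refeeding by 0.57. In the list of malonyl-CoA disposal and AMP-activated kinase, 11 genes were tested, and 4 rose and 2 fell on fasting in wild-type mice (beside 14.5% and 17.5% of all genes). *Cpt1a*, the carnitine palmitoyltransferase that malonyl-CoA inhibits, rose on fasting (log2 fold change 1.60 in wild-type mice, 1.34 in WT/Y657* mice) and fell on refeeding by 0.92 and 0.77 on the same scale. *Cpt2* was the 1 gene of this list called between fasted genotypes (log2 fold change -0.29, adjusted p = 0.0261), beside 6.63% of all genes called lower and 6.43% higher. The call was lost without any of 3 mice, at an adjusted p of up to 0.0767.

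The 10 transcripts varied together to different degrees, described here by Pearson r of log2 CPM over the 36 mice, which share feeding groups and libraries. Between pairs without *Scd1* the median r was 0.86, and the pairs of *Fasn* with *Acly* and with *Thrsp* were highest at 0.97. *Scd1* had r between -0.13 (*Mid1ip1*) and 0.69 (*Acacb*) with the others. With each group's mean removed, which leaves the variation between mice of 1 group, the median r without *Scd1* was 0.65, *Fasn* and *Acaca* being highest at 0.88, and *Scd1* had -0.060 to 0.20. *Acacb* had r of 0.86 with *Acly*, 0.85 with *Acss2* and 0.32 with *Mid1ip1* on this scale, which pools the 6 groups and with them the wide spread of fed mice. Against the mean profile of the 10 genes over the 36 mice, *Srebf1* had r of 0.89 and *Mlxipl* of 0.64, and with group means removed 0.37 and 0.20.

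Of all other genes tested, the 8 with the profile most like the mean of the 10 over 36 mice were *Pklr* (r = 0.96), *Hcn3* (0.95), *Rnf146* (0.95), *Pgd* (0.95), *Pygl* (0.94), *Slc25a44* (0.94), *Gpam* (0.93) and *Tkt* (0.93). *Pklr* encodes liver pyruvate kinase, *Pgd* and *Tkt* encode enzymes of the pentose phosphate pathway, *Pygl* liver glycogen phosphorylase and *Gpam* the acyltransferase that begins glycerolipid synthesis. *Hcn3* and *Pklr* lie side by side with overlapping spans in the table, so their reads may not be separate. With group means removed the 5 most like were *Slc25a1*, the mitochondrial citrate carrier (r = 0.84), *Aacs*, acetoacetyl-CoA synthetase (0.83), *Gpam* (0.83), *Slc25a44* (0.81) and *Pklr* (0.81).

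**Figure D5:**
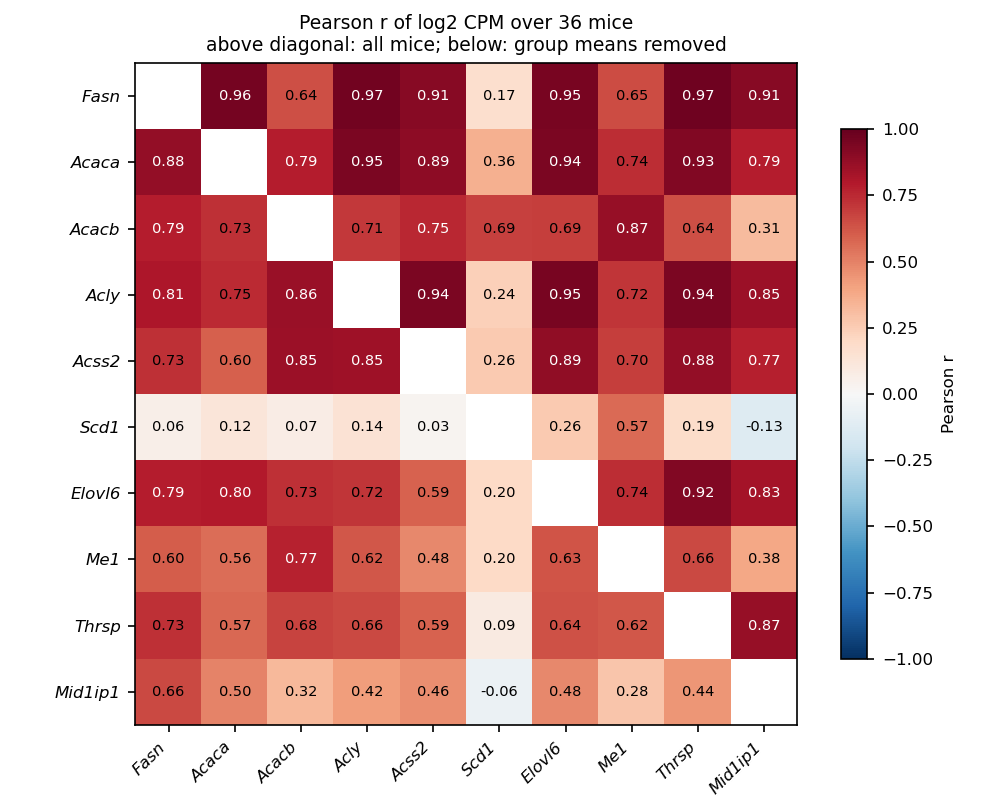
Pearson r of log2 CPM between each pair of lipogenic transcripts over 36 mice, above the diagonal for all mice and below it with each group's mean removed, on a colour scale from -1 to 1. The row and column of *Scd1* are pale throughout below the diagonal, at -0.060 to 0.20.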

How the data were processed

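RNA from the frozen livers of 36 mice, 6 per genotype and feeding state, was made into stranded libraries and sequenced as single reads. The deposited table holds estimated counts of each gene in each mouse as the authors' counting gave them, not normalized. The submitters' processing notes name Cuffdiff, SAMtools, featureCounts and edgeR without versions, and the build mm9. Of the 36341 gene identifiers shared with GENCODE M21, 99.7% had spans in the table that overlapped those of GRCm38, so that build served for annotation and promoters. A second deposited table, of the authors' fitted means, was not used here.

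Of the counts above 0, 3.64% were not whole, and all were rounded. Totals per mouse were 8839488 to 19542775 counts (median 13596665.5). The smallest count of any of the 10 genes was 54, for *Mid1ip1* in a fasted mouse. With edgeR 4.0.16 in R 4.3.3, filterByExpr kept 13945 genes over the 6 groups. The fit used TMM scaling, robust quasi-likelihood dispersions and 1 term per group (common biological coefficient of variation 0.181). Tests were two-sided at a Benjamini-Hochberg adjusted p of 0.05, counted over every gene tested, and a standard error is the log2 fold change divided by the square root of F. Log2 CPM has a prior count of 2, and levels per kb use the longest principal transcript of M21. The p-values measure the spread between mice.

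On counts simulated for the fasted genotypes, 162 of 198 changed genes (81.8%) were recovered, 67 of them changed by 1 and 95 by 2 on the log2 scale, and 11 of 173 calls (6.36%) were false, among 13820 genes.

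The 10 genes, the other gene lists and the tests were chosen with earlier results of these data known. From each of 4 lists of related genes the text names the 3 with the smallest p between fasted genotypes and the 3 with the smallest p on refeeding of wild-type mice, with *Srebf1* and *Mlxipl*, and it names the 8 and the 5 genes closest to the mean profile. One gene that this rule names is not reported here. *Gm14493* and *Gss* were named for exon overlap after their values were seen. The alternatives were other tools (DESeq2 1.42.0, the likelihood ratio test of edgeR, limma-voom from limma 3.58.1), other scalings (size factors of DESeq2, total counts), other filters (none, or a minimum of 10 counts per library), a fit to only the groups compared, the number series as a covariate, and each mouse left out in turn. Added after seeing the data were the runs of fed mouse numbers as covariates, and the same alternatives for the named genes of the other lists.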

Additional observations from a re-analysis of the deposited data

Results flagged for a closer look

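In 7 of 60 sets of 6 mice, 1 mouse stood apart from the other 5 by Dixon's criterion on the gap over the range of CPM. Chance meets this criterion in about 1 set of 20 where values are independent and normally spread. The sets share mice and genes that vary together, so that rate cannot be set against 7 of 60. Refed wild-type replicate 2 was highest for *Fasn* (1045 CPM), *Acaca* (172 CPM) and *Elovl6* (181 CPM). Fasted WT/Y657* replicate 4 was highest for *Acaca* (104 CPM) and *Elovl6* (79.1 CPM). Fed WT/Y657* replicate 6 was highest for *Acacb* (344 CPM), and refed WT/Y657* replicate 6 for *Mid1ip1* (99.4 CPM).

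For 4 genes of the related lists the response differed between genotypes by the test of the interaction itself. Of all genes tested, 4.35% were called for fasting, 2.06% for refeeding and 0.179% for refed against fed mice. *Srebf1* had a deeper fall on fasting (log2 interaction -1.24, adjusted p = 0.00775) and a steeper rise on refeeding (1.04, adjusted p = 0.0356) in WT/Y657* mice. *Mlx*, the partner that ChREBP needs to bind DNA, had a shallower fall on fasting in WT/Y657* mice (0.50, adjusted p = 0.00256) and a refed level that was higher against the fed level (0.59, adjusted p = 0.00433). Its levels were 31.1 to 36.5 CPM in fed wild-type mice and 24.2 to 27.1 CPM in fed WT/Y657* mice, without overlap, and 20.6 to 23.2 CPM and 21.4 to 25.5 CPM after fasting. *Tkt* fell further on fasting in WT/Y657* mice (-0.55, adjusted p = 0.0368), a call that was lost without any of 12 mice, at an adjusted p of up to 0.0733. *Elovl5*, named after its values were seen, had an interaction of -1.39 on fasting (adjusted p = 0.0125). With the runs of fed mouse numbers as covariates, chosen after seeing the data, the fasting interactions kept their sign and were not called (adjusted p = 0.0962 for *Srebf1*, 0.109 for *Mlx*, 0.202 for *Tkt* and 0.77 for *Elovl5*), nor was that of *Mlx* for refed against fed mice (adjusted p = 0.47).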

How the results depend on the processing

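Between fasted genotypes 4 of the 10 genes were called with only the groups compared and 2 (*Acly* and *Mid1ip1*) with the number series as a covariate, instead of 1. Over all genes these fits called 1534 of 12943 and 1912 of 13604, beside 1821 of 13945 in the reported fit. Between fed genotypes leaving out 1 mouse gave 0 to 2, the 2 without wild-type replicate 5, where 428 of 14080 genes were called. For the genotype difference in fasting the count was 1 instead of 0 with DESeq2, the likelihood ratio test, total counts, at least 10 counts in every library and only the groups compared (*Mid1ip1* each time) and with limma-voom (*Acly*). Over all genes these fits called 490 to 843, beside 607 in the reported fit. Without 1 mouse the count of the 10 was 0 to 1, with *Mid1ip1* called without fasted wild-type replicate 3, fed WT/Y657* replicate 3 or fasted WT/Y657* replicate 5 and *Acly* without fed wild-type replicate 5. For refeeding the count was 1 with DESeq2 (*Mid1ip1*), where 430 of 13945 genes were called. The causes were not tested. In the 8 other comparisons the count of calls in either direction stayed within 1.5 times the reported one under each alternative run, but on refeeding the count of genes that fell went from 1 to 2 in wild-type mice and from 2 to 1 in WT/Y657* mice in some, through *Acacb*. The *Mid1ip1* difference between fasted genotypes was called in all its alternatives, at an adjusted p between 7.68e-05 and 0.0174. No called value of the 10 genes changed sign, and 23 of their other values did. *Scd1* between fasted genotypes was 0.46 with limma-voom, 0.032 with total counts, 0.015 with at least 10 counts in every library, 0.016 with only the groups compared, 0.00022 with the number series and -0.25 to 0.17 without 1 mouse, and its refeeding difference was -0.28 with limma-voom. With total counts *Mid1ip1* between fed genotypes was 0.091, *Me1* between refed genotypes 0.017 and *Me1* on refeeding of wild-type mice 0.015. With at least 10 counts in every library *Mid1ip1* between fed genotypes was 0.0059 and the refeeding difference of *Acaca* -0.010. With the runs of fed mouse numbers as covariates, the values between fed genotypes were -0.27 for *Acacb*, -0.36 for *Acss2*, -0.54 for *Scd1*, -0.079 for *Thrsp*, 0.27 for *Mid1ip1* and, as a called value of another list, -0.34 for *Pnpla3*, the fasting differences 0.45 for *Acacb* and 0.54 for *Scd1*, and the differences of refed against fed mice 0.39 for *Acacb*, 0.11 for *Acss2* and 0.75 for *Scd1*. Without 1 mouse, values between fed genotypes were -0.063 to 0.24 for *Acaca*, -0.052 to 0.40 for *Acss2* and -0.095 to 0.068 for *Mid1ip1*, and that of *Me1* between fasted genotypes -0.012 to 0.13. Between refed genotypes they were -0.015 to 0.24 for *Acacb*, -0.20 to 0.068 for *Acly*, -0.18 to 0.43 for *Scd1*, -0.15 to 0.040 for *Me1* and -0.37 to 0.021 for *Mid1ip1*, and on refeeding of wild-type mice -0.12 to 0.047 for *Me1*. The fasting difference of *Acacb* was -0.36 to 0.14. The refeeding differences were -0.096 to 0.13 for *Acaca*, -0.20 to 0.050 for *Acacb* and -0.17 to 0.46 for *Scd1*, and those of refed against fed mice -0.42 to 0.083 for *Acacb* and -0.37 to 0.024 for *Mid1ip1*. Over all genes tested, the runs of fed mouse numbers as covariates took the calls from 330 to 0 between fed genotypes, from 607 to 83 for the fasting difference and from 25 to 0 for the difference of refed against fed mice. Between fed genotypes there were 30 such calls with only the fed groups and 68 without WT/Y657* replicate 4. No paired analysis was possible because the labels give each mouse a number of its own.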

Other observations

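Genes of the related lists that the text has not yet described had these values on the log2 scale, in wild-type mice first. *Nfyb*, a subunit of the CCAAT-binding factor NF-Y, rose on refeeding by 0.68 (adjusted p = 2.24e-07) and 0.59 (adjusted p = 2.97e-06). *Pdhb*, a subunit of pyruvate dehydrogenase, fell on fasting by 0.80 and 0.89 and rose on refeeding by 0.62 and 0.59, all called. *Idh1*, the cytosolic isocitrate dehydrogenase that makes NADPH, rose on refeeding by 0.29 (adjusted p = 0.0167, and 0.0628 without refed wild-type replicate 2) and 0.34 (adjusted p = 0.00453). *Slc25a20*, the carnitine-acylcarnitine carrier, rose on fasting by 1.35 and 1.26 and fell on refeeding by 0.72 and 0.69, all called.

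Among the phosphatidate phosphatases, *Lpin1* fell on fasting in wild-type mice (log2 fold change -2.69, adjusted p = 0.000406), and in WT/Y657* mice its log2 fold change was -1.01 (adjusted p = 0.149). *Lpin2* rose on fasting in WT/Y657* mice (0.90, adjusted p = 0.000841), with 0.21 in wild-type mice (adjusted p = 0.454). On refeeding *Lpin2* fell by 1.52 in WT/Y657* mice (adjusted p = 8.51e-07) and by 0.53 in wild-type mice (adjusted p = 0.0444), the latter lost without any of 8 mice. The genotype difference of the fasting response was not called for *Lpin1* (1.68, adjusted p = 0.212) or *Lpin2* (0.69, adjusted p = 0.178). *Prkab2*, a subunit of the AMP-activated kinase, was not called on fasting or refeeding in either genotype.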
